A study of Mus musculus with 18 samples.

Results

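The atrial and B-type natriuretic peptide genes Nppa and Nppb, the skeletal muscle alpha-actin gene Acta1 and the cardiac ankyrin repeat protein gene Ankrd1 were followed across a series of mouse heart arrays. They are 4 of the 8251 genes that the arrays measure through a probe set with a single gene symbol, and they were chosen by symbol, with 1 probe set each. Transgenic mice, labelled TNFTG and described as carrying a cardiac-specific TNF-alpha transgene, were sampled as females and males of 3 weeks, males of 13 weeks and females of 40 weeks, and FVB females and males of 3 weeks were the controls. Total heart RNA was read on Affymetrix U74Av2 oligonucleotide arrays, 3 per group by title. The columns of FVB female replicates 1 and 2 are identical in all 12488 probe sets, so they were counted as 1 sample, which leaves 17 arrays. The labels name neither the promoter of the transgene nor the founder line, do not say whether an array held 1 animal or several, and give no FVB heart older than 3 weeks. P-values therefore measure the spread between these arrays, which may be technical.

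As background, the natriuretic peptides are hormones that heart muscle cells release when stretched. They lower blood volume and pressure through membrane guanylyl cyclase receptors. In the healthy adult heart Nppa is expressed mainly in the atria, while Nppb is also made by the ventricles, and both are active in the fetal ventricle. Acta1 encodes the sarcomeric actin of skeletal muscle, which the fetal heart makes as well and the adult mouse heart makes less of. Ankrd1 encodes a stretch-responsive ankyrin repeat protein that binds the elastic I-band part of titin and is also found in the nucleus. A renewed rise of such fetal genes is a widely used mark of hypertrophy in rodents.

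Nppa and Nppb lie next to each other on the plus strand of chromosome 4 in the assembly GRCm38.p6, Nppb at chr4:147985786-147987205 and Nppa at chr4:148000722-148002074, with 13516 bases and 0 annotated genes between them. Acta1 is at chr8:123891758-123894775 and Ankrd1 at chr19:36111965-36119844, both on the minus strand. All 4 are annotated as protein-coding. Their upstream sequences are shown because Nppa and Nppb are neighbours whose signals can be compared array by array, and because the letters of known heart muscle elements can be read in them. They come from RefSeq on GRCm38.p6 and are written 5′ to 3′ on the strand of the gene, with the motif matches in capitals. For Nppa, Acta1 and Ankrd1 they are the 250 bases before the start, at chr4:148000472-148000721, chr8:123894776-123895025 and chr19:36119845-36120094. For Nppb, where another RefSeq model begins 114 bases farther upstream, a stretch of 30 bases at chr4:147985794-147985823 is shown.
Nppa: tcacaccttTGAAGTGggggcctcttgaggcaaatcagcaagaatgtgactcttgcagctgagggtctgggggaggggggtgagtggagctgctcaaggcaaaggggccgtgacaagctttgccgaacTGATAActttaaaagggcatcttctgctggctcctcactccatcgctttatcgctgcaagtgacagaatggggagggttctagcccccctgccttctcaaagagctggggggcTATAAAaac
Nppb: AGGAATGcagcTGATAAatcagAGATAAcc
Acta1: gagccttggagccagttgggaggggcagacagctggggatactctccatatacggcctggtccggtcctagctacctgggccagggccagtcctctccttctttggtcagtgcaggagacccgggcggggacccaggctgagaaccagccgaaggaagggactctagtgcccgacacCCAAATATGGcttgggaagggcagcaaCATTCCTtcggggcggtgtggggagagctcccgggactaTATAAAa
Ankrd1: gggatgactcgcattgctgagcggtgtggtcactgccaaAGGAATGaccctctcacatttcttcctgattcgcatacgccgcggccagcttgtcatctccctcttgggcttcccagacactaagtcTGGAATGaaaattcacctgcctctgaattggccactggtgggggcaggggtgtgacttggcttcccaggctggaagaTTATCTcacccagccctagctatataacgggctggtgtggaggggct

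The searched letters, on both strands of the 250 bases before each start, were the CArG box of serum response factor (by name alone), the MEF2 element (by name alone), the GATA element (the letters GATA after A or T and before A or G), the M-CAT element (CATTCC before T or A), the NKX2-5 element (TNAAGTG) and the TATA box (TATAAA). No matches overlap one another in the 4 windows. The Nppa window holds an NKX2-5 element at position -241 and a GATA element at -122 from the start, both on the strand of the gene. The Nppb window holds GATA elements at -95 and -84 and an M-CAT element on the opposite strand at -106. Acta1 alone of the 4 has a CArG box, at -73, followed by an M-CAT element at -46. Ankrd1 has M-CAT elements at -211 and -124 and a GATA element at -47, all on the opposite strand. TATAAA is present upstream of Nppa, Nppb and Acta1, and no MEF2 element was matched in the 4 windows. Over 32851 RefSeq windows of the same length, 1.467% held the CArG box, 2.919% the MEF2 element, 26.538% a GATA element, 7.966% an M-CAT element, 10.061% the NKX2-5 element and 12.368% TATAAA. These are matches of letters, and no binding was measured here.

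**Figure D1:**
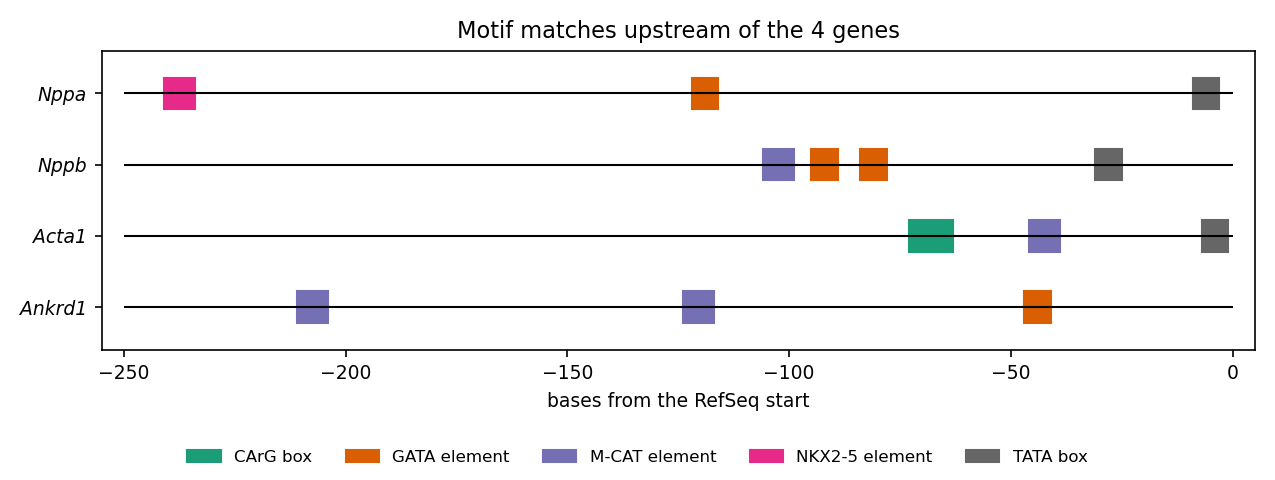
Positions of the motif matches, in bases from the RefSeq start (x axis), in the 250 bases upstream of each gene (rows), with a colour per motif. The GATA element appears upstream of Nppa, Nppb and Ankrd1 and the CArG box upstream of Acta1, at -73.

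Values are probe set signals on a linear scale. Probe sets differ in brightness, so the 4 genes were not ranked by level, and a summed signal is weighted to its brightest probe sets. Array means without the lowest and highest 2% ran from 499.2 to 499.9. Tnf itself read 5475.5 to 12082.3 on the transgenic arrays and 12.5 to 124.9 on the FVB arrays. All 13 measured heart muscle defining markers were detected on every array. Of the FVB arrays, 3 are in doubt. The merged FVB female array correlated with the others at a Spearman rho of only 0.775 to 0.856 and had 7.33% of its probe sets at the floor, against 23.69% to 28.31% on the other 16 arrays. The arrays labelled FVB male replicates 1 and 2 carried the female transcript Xist at 1380.6 and 2705.7, against 5.9 on FVB male replicate 3. They also carried the Y-linked Eif2s3y at 298.7 and 67.4, against 544.9 on replicate 3, and Uty at 129.7 and 16.9, against 228.0. Results are given below with and without these arrays. The ratio of the 3′ to the 5′ probe sets of Actb is a measure of RNA integrity. It was 1.265 ± 0.102 (SD, n = 6) in transgenic hearts of 3 weeks and 1.711 ± 0.263 (SD, n = 5) in FVB hearts. In transgenic hearts it was 1.343 ± 0.122 (SD, n = 3) at 13 weeks and 1.584 ± 0.192 (SD, n = 3) at 40 weeks. Its part in the differences by genotype and by age was not tested.

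At 3 weeks, 3 of the 4 genes were higher in transgenic than in FVB hearts: Nppa by 3.48-fold, Nppb by 1.93-fold and Acta1 by 1.75-fold, while Ankrd1 was at 1.02-fold with an interval on both sides of 1. The test was limma on log2 signal, with the female and male differences weighted equally and Benjamini-Hochberg adjustment over 7453 tested probe sets. In the same comparison 46.6% of all tested probe sets were called, 24.7% as higher and 21.9% as lower, so a call alone does not set these genes apart. By size, 4.20% of the tested probe sets had a greater log2 difference than Nppa, 11.6% than Nppb, 14.5% than Acta1 and 47.5% than Ankrd1. Without the 3 doubted FVB arrays, and likewise without FVB male replicates 1 and 2 alone, 2 of the 4 genes were called, Nppa and Nppb.

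Nppa had signals of 3649.3, 6458.3 and 6922.1 in transgenic females of 3 weeks and of 7888.7, 7887.9 and 6535.3 in transgenic males, against 2016.8 and 1887.9 in FVB females and 1120.0, 1033.8 and 4322.3 in FVB males. Only 1 pair of arrays crossed: transgenic female replicate 1, the lowest of its group, lay below FVB male replicate 3, the highest of its group. The means were 6557 ± 1558 (SD, n = 6) in transgenic and 2076 ± 1331 (SD, n = 5) in FVB hearts. The limma difference was 1.80 on the log2 scale (SE 0.33, adjusted p = 4.20e-04), with a 95% interval for the fold of 2.13 to 5.68. It was 1.16 (adjusted p = 0.0117) without the 3 doubted FVB arrays.

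Both arrays at the crossing also differ in their atrial marker sums. The summed signal of 10 measured atrial marker genes, among them the atrial myosin light chains Myl7 and Myl4, was 16822.6 on FVB male replicate 3, against 3261.1 to 6045.3 on the other FVB arrays. It was 2067 on transgenic female replicate 1, the lowest of the transgenic arrays of 3 weeks, which reached 5461.1. Myl7 and Myl4 made up 14870.0 of the sum on FVB male replicate 3, and the other 8 markers summed to 1952.6 there, against 1434.2 to 1593.2 on the other FVB arrays, and to 1102.9 on transgenic female replicate 1. Their heart muscle signal differed too. The summed signal of 13 heart muscle defining markers was 399434 on FVB male replicate 3, the highest of the 17 arrays. It was 134884 on transgenic female replicate 1, in a range of 133160 to 254426 over transgenic hearts of 3 weeks. Relative to the mean log2 signal of these markers, Nppa was 2.14 above the FVB mean on transgenic female replicate 1. On FVB male replicate 3 it was 1.02 above it. The part of atrial tissue and of heart muscle signal in the Nppa values was not tested. At the group level the atrial sums overlapped, with 2067 to 5461.1 in transgenic hearts of 3 weeks and 3261.1 to 16822.6 in FVB hearts. Of the 6 tested atrial markers 0 were called. Without FVB male replicates 1 and 2, which gives replicate 3 more weight, 3 atrial markers were called lower. Myl7 read 472.4 to 1747.5 in transgenic hearts of 3 weeks and 843.8 to 6786.2 in FVB hearts. Without FVB male replicate 3 the Nppa difference was 2.13 (adjusted p = 5.68e-06, limma), and without transgenic female replicate 1 it was 1.95 (adjusted p = 4.40e-04, limma).

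**Figure D2:**
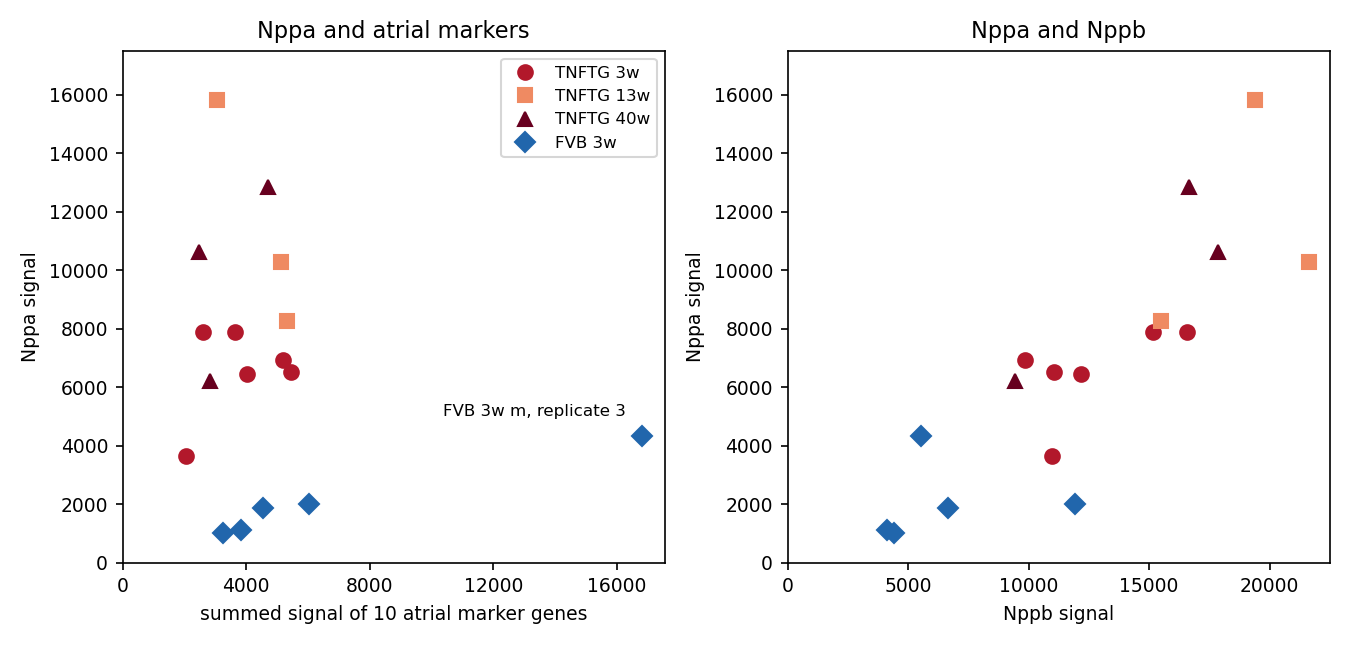
Nppa signal (y axes) against the summed signal of 10 atrial marker genes (left) and against Nppb signal (right), both linear, with 1 point per array and a symbol per genotype and age. FVB male replicate 3 stands at an atrial sum of 16822.6 while all 16 other arrays stand at or below 6045.3, and the transgenic arrays reach higher on the Nppb axis, up to 21619.4, than the FVB arrays, up to 11938.8.

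Nppb had signals of 10977.6, 12160.9 and 9842.7 in transgenic females of 3 weeks and of 16563.5, 15153.7 and 11063.7 in transgenic males, against 11938.8 and 6673.2 in FVB females and 4120.9, 4402.6 and 5548.7 in FVB males. All transgenic males lay above all FVB males, a separation that 24.9% of the tested probe sets also showed upwards. The females overlapped through the merged FVB female array, the highest of the 5 FVB arrays. The means were 12627 ± 2646 (SD, n = 6) in transgenic and 6537 ± 3185 (SD, n = 5) in FVB hearts. The limma difference was 0.95 (SE 0.20, adjusted p = 0.00133), with a fold interval of 1.43 to 2.59. It was 1.03 (adjusted p = 0.00567) without the 3 doubted FVB arrays.

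Acta1 had signals of 8342.9, 10685.9 and 10673.3 in transgenic females of 3 weeks and of 7874.3, 8837.0 and 8084.8 in transgenic males, against 6064.5 and 6297.2 in FVB females and 3274.5, 4047.2 and 5931.0 in FVB males. It was the one gene of the 4 whose transgenic arrays of 3 weeks all lay above every FVB array, a separation that 14.5% of the tested probe sets also showed upwards. The means were 9083 ± 1278 (SD, n = 6) in transgenic and 5123 ± 1369 (SD, n = 5) in FVB hearts. The limma difference was 0.81 (SE 0.29, adjusted p = 0.0337), with a fold interval of 1.14 to 2.70. This call was lost without the 3 doubted FVB arrays (0.56, adjusted p = 0.302) and without FVB male replicates 1 and 2 (0.57, adjusted p = 0.224), both by limma.

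Ankrd1 had signals of 10842.2, 10906.2 and 10783.4 in transgenic females of 3 weeks and of 14822.6, 14943.9 and 9819.2 in transgenic males, against 17143.8 and 9096.2 in FVB females and 11613.9, 10139.7 and 10655.6 in FVB males. The highest FVB value, on the merged female array, exceeded every transgenic value of that age, and the groups overlapped throughout. The limma difference was 0.03 (SE 0.20, adjusted p = 0.914), with a fold interval of 0.761 to 1.37. It was 0.27 (adjusted p = 0.422, limma) without the 3 doubted FVB arrays.

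**Figure D3:**
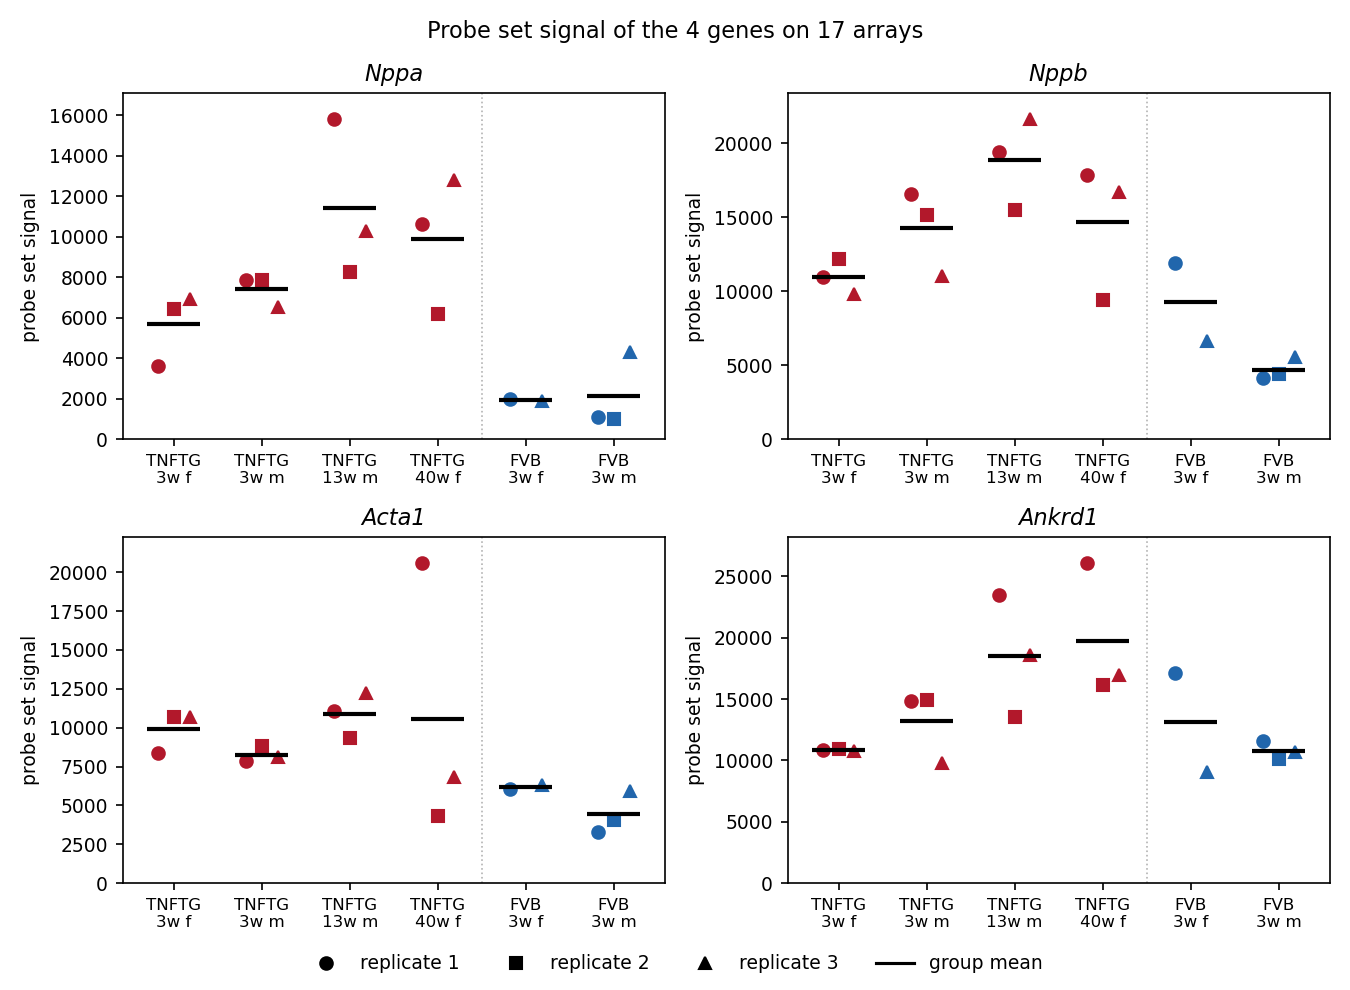
Probe set signal (y axes, linear, from 0) of Nppa, Nppb, Acta1 and Ankrd1 on each of the 17 arrays, by group (x axes), with a symbol per replicate number and a bar at the group mean. Of the 12 transgenic arrays, 11 lie above every FVB array for Nppa and for Acta1, 8 for Nppb and 3 for Ankrd1.

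Split by sex, Nppa was called in both sexes, with a log2 difference of 1.49 (SE 0.50, adjusted p = 0.0303) in females and 2.11 (SE 0.44, adjusted p = 0.00183) in males by limma. In females 34.7% of the tested probe sets were called (19.4% higher, 15.3% lower) and in males 29.7% (16.9% higher, 12.8% lower). Nppb was called in males, at 1.60 (SE 0.27, adjusted p = 2.90e-04, limma), and not in females, at 0.30 (SE 0.30, adjusted p = 0.468). Acta1 was called in neither, with 0.67 (adjusted p = 0.246) in females and 0.95 (adjusted p = 0.0819) in males, and Ankrd1 had -0.20 (adjusted p = 0.623) and 0.26 (adjusted p = 0.499) in the same order, all by limma. The test of the difference itself, female minus male, gave -1.30 for Nppb (SE 0.40, unadjusted p = 0.00533, adjusted p = 0.174, limma) and passed for none of the 4 genes. In that test 0% of the tested probe sets were called, and without FVB female replicate 3, which leaves the merged array as the only FVB female, Nppb was called at -1.72 (adjusted p = 0.0115, limma), together with 724 higher and 768 lower probe sets in all. The Nppb value was -0.88 (adjusted p = 0.576, limma) without the merged array and -0.63 (adjusted p = 0.816, limma) without the 3 doubted FVB arrays. Without FVB male replicates 1 and 2 the Nppa difference in males was 0.78 instead of 2.11, with FVB male replicate 3, at 4322.3, as the only FVB male. The call of Nppa in males therefore depends on 2 arrays that carried Xist. Nppa in females had an adjusted p of 0.0854 without FVB female replicate 3 and 0.106 without the merged array, by limma. Within transgenic hearts of 3 weeks, females and males differed in none of the 4 genes, with log2 differences of -0.44 for Nppa, -0.36 for Nppb, 0.25 for Acta1 and -0.26 for Ankrd1, and 0.0805% of the tested probe sets were called, 0.0403% in each direction.

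Between 3 and 13 weeks, 0 of the 4 genes passed the test of the change in transgenic males, although the group means were all higher at 13 weeks. Nppa read 15809.2, 8256.0 and 10277.9 at 13 weeks, all above the 3 transgenic males of 3 weeks, and differed by 0.57 (SE 0.44, adjusted p = 0.848, limma). Nppb read 19405.5, 15483.1 and 21619.4, overlapping with 3 weeks, and differed by 0.41 (SE 0.27, adjusted p = 0.789, limma). Acta1 read 11100.9, 9331.2 and 12247.9, again all above 3 weeks, and differed by 0.39 (SE 0.39, adjusted p = 0.909, limma). Such a separation upwards held for Nppa and Acta1 and for 7.55% of all tested probe sets. Ankrd1 read 23467.8, 13516.9 and 18629.2, overlapping with 3 weeks, and differed by 0.48 (SE 0.27, unadjusted p = 0.0903, adjusted p = 0.711, limma). In this comparison 0.523% of the tested probe sets were called (0.349% higher, 0.174% lower).

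Between 3 and 40 weeks, 0 of the 4 genes passed in transgenic females, and only Ankrd1 had groups that did not overlap. It read 26107.3, 16122.2 and 16946.2 at 40 weeks, all above the 10783.4 to 10906.2 of transgenic females of 3 weeks, and differed by 0.83 (SE 0.27, 95% interval 0.26 to 1.39), a 1.78-fold difference. Its unadjusted p of 0.00683 became 0.265 after adjustment in limma, where 0.671% of the tested probe sets were called (0.376% higher, 0.295% lower), and 9.49% were separated upwards like it. Nppa read 10615.2, 6213.2 and 12827.8, overlapping with 3 weeks, at 0.79 (SE 0.44, adjusted p = 0.674, limma). Nppb read 17839.6, 9434.2 and 16675.7, overlapping too, at 0.36 (SE 0.27, adjusted p = 0.792, limma). For each of the 4 genes, transgenic female replicate 2 of 40 weeks was the lowest of its group.

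Acta1 was the most variable of the 4 genes at 40 weeks, with 20599.5, 4303.0 and 6825.9. Replicate 1 was the highest Acta1 value of the series and replicate 2 the lowest of the transgenic arrays, a 4.79-fold range and a coefficient of variation of 82.9%, against 13.5% in transgenic males of 13 weeks. The change from 3 weeks was -0.22 (SE 0.39, adjusted p = 0.946, limma) and was 0.27 at one end and -0.86 at the other when single arrays were left out, this last value without replicate 1. The summed signal of 15 measured skeletal muscle markers was 4335.7 on replicate 1, the highest of the 3, and 3205 and 3914.3 on replicates 2 and 3. It was 7260.8 to 10934.1 in transgenic hearts of 3 weeks. Of these sums Casq1 alone held 2155.2, 1182.6 and 1464.0 on replicates 1, 2 and 3, and 4886.4 to 8467.1 at 3 weeks. The part of skeletal muscle markers in the Acta1 range was not tested. The skeletal myosins Myh1 and Myh2 were at the floor on 17 and 16 of the 17 arrays.

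The change to 40 weeks in females did not differ from the change to 13 weeks in males for any of the 4 genes, with differences of 0.22 for Nppa, -0.04 for Nppb, -0.61 for Acta1 and 0.35 for Ankrd1 and an adjusted p of 0.9997 for each in limma. In that test 0% of the tested probe sets were called. Because each later age holds 1 sex and has no FVB hearts beside it, age, sex and the duration of the transgene's activity cannot be told apart, and the age changes share the transgenic arrays of 3 weeks with the comparison to FVB.

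**Figure D4:**
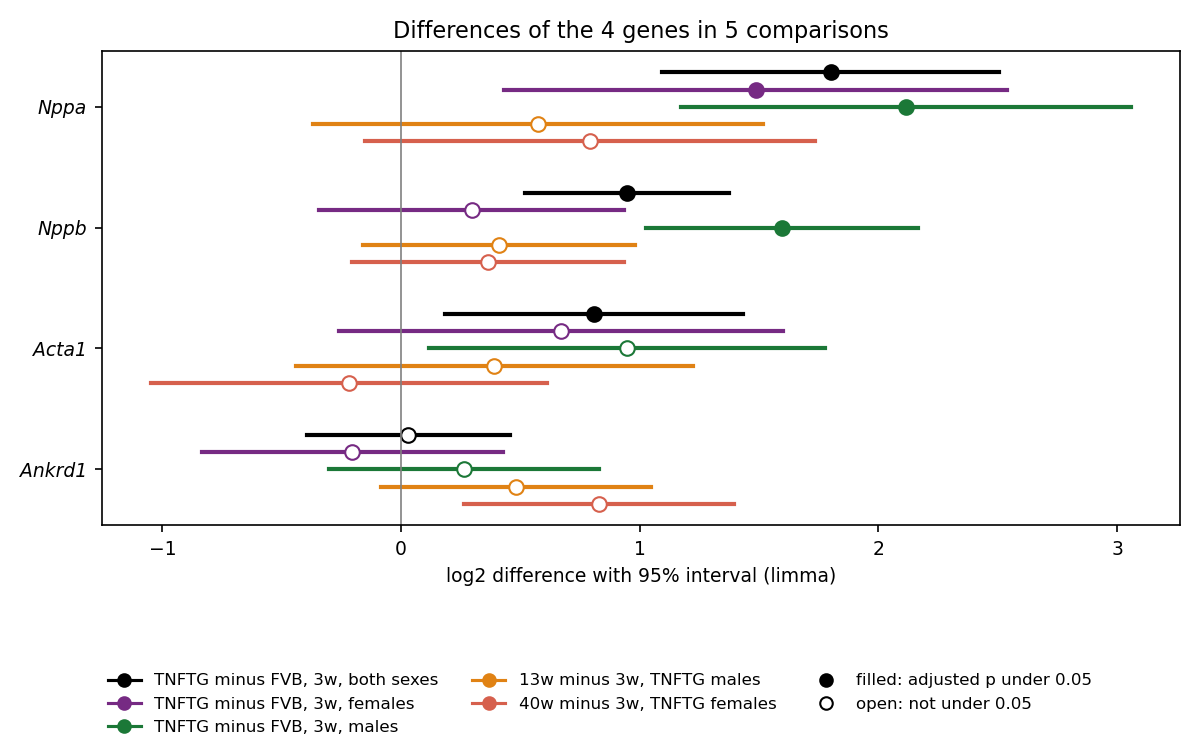
Log2 differences (x axis) with 95% intervals for the 4 genes in 5 comparisons, from limma, with filled points where the adjusted p is under 0.05. Nppa is filled in all 3 comparisons of transgenic with FVB hearts, Nppb in 2 and Acta1 in 1, and no age change is filled.

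In order of group means, transgenic males of 13 weeks came first for Nppa (11448), Nppb (18836) and Acta1 (10893), and transgenic females of 40 weeks for Ankrd1 (19725). FVB males were last for Nppb (4691), Acta1 (4418) and Ankrd1 (10803). For Nppa the FVB means were 1952 in females and 2159 in males, where replicate 3 alone exceeded the females. Neighbouring groups in this order overlapped in every step for Nppa and Ankrd1. They separated between FVB females and FVB males for Nppb and Acta1, and between transgenic males of 3 weeks and FVB females for Acta1. Each of these steps sets 2 arrays against 3, and FVB male replicates 1 and 2 carried Xist. How many of all tested probe sets separated in them was not counted. In the likeness of their profiles the 4 genes were not each other's nearest. With log2 profiles centred on their mean over 17 arrays, the nearest to Nppa among 5699 other tested genes was Myh7, the beta myosin heavy chain of the fetal heart, at a root mean square difference of 0.48 log2 units, followed by Stxbp2 (0.54) and Serpina3n (0.55), against a median of 1.198 over all genes. Nearest to Nppb were Clu (0.33), Spi1 (0.34) and Myh7 (0.38), against a median of 0.80. Nearest to Acta1 were Vac14 (0.37), Bhlhe40 (0.41) and Tubb3 (0.42), against 0.73, and nearest to Ankrd1 were Fhl1 (0.27), Pias3 (0.28) and Nqo1 (0.31), against 0.59. Nppb ranked 15th by likeness to its chromosomal neighbour Nppa and 7th by likeness to Acta1. By likeness to Nppb, Nppa ranked 830th, behind Acta1 at 33rd and Ankrd1 at 100th. The root mean square difference of Nppa and Nppb is 0.65 both ways. This measure counts the size of a profile, and the SD was 1.19 for Nppa and 0.73 for Nppb. Within the groups, the 6 pairings of the 4 genes ordered 9 to 12 of 16 pairs of arrays the same way, with 11 for Nppa and Nppb.

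The heart muscle background of these genes fell. All 13 measured defining markers, among them Myh6, Tnnt2 and Ryr2, were lower in transgenic hearts of 3 weeks (median log2 difference -0.99, against -0.0065 over all tested probe sets; 13 of 13 also without the 3 doubted FVB arrays), and their summed signal was 133160 to 254426 in those hearts and 251644 to 399434 in FVB hearts. Of 8 tested macrophage markers, which name cells that a heart can also hold, 7 rose, with a summed signal of 23148.2 to 29709.5 in transgenic hearts of 3 weeks and 2804.3 to 4425.2 in FVB hearts. In bulk tissue, fewer cells of a type and less RNA per cell cannot be told apart, and the part of these shifts in the values above was not tested. Of the other cell types, 3 of 9 tested fibroblast markers rose and 2 fell, 3 of 6 smooth muscle markers rose and 2 fell, and 0 of 8 endothelial markers rose and 3 fell, beside 24.7% higher and 21.9% lower among all tested probe sets. Without the 3 doubted FVB arrays 1 fibroblast marker rose and 3 fell, 2 smooth muscle markers rose and 0 fell, and 2 endothelial markers fell.

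Of 16 listed genes of the natriuretic peptide system, among them processing enzymes and receptors, 11 were on the array and 5 were tested. At 3 weeks 3 of the 5 fell, 2 were not called and 0 rose (median -0.56), beside 24.7% higher and 21.9% lower among all tested probe sets. Without the 3 doubted FVB arrays 3 fell and 0 rose as well. Corin is the membrane protease that cleaves pro-atrial natriuretic peptide. It read 349.8 to 600.1 in transgenic hearts of 3 weeks and 1246.0 to 2038.4 in FVB hearts. These ranges did not overlap, a separation that 9.14% of the tested probe sets also showed downwards. Corin fell by 1.86 on the log2 scale (SE 0.19, adjusted p = 1.13e-06, limma), and read 427.4 to 820.5 at 13 weeks and 604.8 to 797.3 at 40 weeks. Pcsk6, the convertase that activates corin, fell by 1.43 (SE 0.19, adjusted p = 1.77e-05, limma). Npr3, the clearance receptor, fell by 0.56 (SE 0.20, adjusted p = 0.0279, limma). Furin, a convertase that cleaves the B-type precursor, had -0.32 (adjusted p = 0.0513), and Ide, a peptide-degrading enzyme, had -0.15 (adjusted p = 0.583). Npr1, the guanylyl cyclase receptor of both hormones, and the degrading enzyme Mme were at the floor on 16 of 17 arrays, so their levels could not be followed. At 13 and 40 weeks 0 of the 5 tested genes were called in either direction.

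Of 29 listed transcription factors and cofactors reported to act on promoters of the 4 genes, 18 were tested, and 4 rose and 7 fell at 3 weeks (median -0.34), beside 24.7% higher and 21.9% lower and a median of -0.0065 among all tested probe sets. Without the 3 doubted FVB arrays 4 rose and 6 fell, and without FVB male replicates 1 and 2 alone 4 rose and 5 fell. The cardiac activators Nkx2-5 (-1.12, adjusted p = 0.00168), Gata6 (-0.71, adjusted p = 0.00519) and Gata4 (-0.59, adjusted p = 0.0470) fell, as did Hopx (-1.23, adjusted p = 5.46e-05), a cofactor that restrains serum response factor, and Hand2, Mef2a and Hdac5. Nkx2-5 and Gata4 are also among the heart muscle markers counted above. Rest, a repressor known to silence Nppa and Nppb in ventricular muscle, rose by 1.13 (SE 0.21, adjusted p = 4.05e-04, limma), reading 567.7 to 984.1 in transgenic hearts of 3 weeks and 192.0 to 423.6 in FVB hearts. Yy1 (0.62), Nfatc1 (0.61) and Mrtfa (0.46) rose too, all by limma. Mef2c had -0.35 (adjusted p = 0.0925, limma). At 13 and 40 weeks 0 of the 18 were called.

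Of 20 tested other genes of the fetal and load-responsive programme, 9 were higher, 4 lower and 7 not called at 3 weeks (median 0.07), where 24.7% of all tested probe sets were higher and 21.9% lower. Slc2a1, the fetal glucose transporter, rose by 1.73 (adjusted p = 1.41e-05), the matrix protein Tnc by 1.64 and Actn1, a non-muscle actinin, by 1.62, all by limma. The matrix protein Postn, the smooth muscle genes Acta2 and Tagln, Ccn2 and Rcan1 rose as well. Without the 3 doubted FVB arrays 8 were higher and 4 lower, and without FVB male replicates 1 and 2 alone 8 were higher and 6 lower. Myh7 read 10297.3 to 20946.4 in transgenic hearts of 3 weeks and 5073.1 to 11523.3 in FVB hearts, and rose by 1.22 (SE 0.21, adjusted p = 1.83e-04, limma). It read 18356.5 to 32746.1 at 13 weeks and 24575.5 to 32433.8 at 40 weeks, changes that did not pass (0.46 and 0.91, adjusted p = 0.756 and 0.218). The load-sensing LIM proteins Fhl2 (-1.21) and Csrp3 (-1.02), the chaperone Cryab (-0.81) and desmin, Des (-0.67), fell. At 40 weeks Acta2 alone of the 20 was called, with a log2 difference of -0.93 from 3 weeks (adjusted p = 0.0337, limma), and at 13 weeks 0 were.

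Of the 5 other actins tested, 2 rose, 1 fell and 2 were not called at 3 weeks, beside 24.7% higher and 21.9% lower among all tested probe sets. Actc1, the cardiac alpha-actin, fell by 0.70 (SE 0.21, adjusted p = 0.0134, limma), with 12851.1 to 23923.8 in transgenic and 20689.3 to 34039.6 in FVB hearts. Acta2, the smooth muscle alpha-actin, rose by 1.19 (SE 0.15, adjusted p = 7.34e-06, limma), with 3948.5 to 6808.7 in transgenic and 1810.6 to 3154.9 in FVB hearts. Actg1 rose by 0.54 (adjusted p = 0.00584, limma), Actg2 had 0.07 (adjusted p = 0.753) and Actb had -1.03 with a large error (SE 0.49, adjusted p = 0.0955). Of the 6 tested skeletal muscle markers 4 fell and 0 rose (median -0.72), and 1 fell without the 3 doubted FVB arrays. The summed signals of 15 measured markers were 7260.8 to 10934.1 in transgenic hearts of 3 weeks and 7296.9 to 9277.7 in FVB hearts. Casq1 alone held 4886.4 to 8467.1 and 3339.9 to 7174.2 of them, in the same order. Actin transcripts are similar in their coding parts, and the extent to which probe sets share targets was not tested.

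Of 9 tested genes of the titin I-band and Z-disc complex, which hold partners of Ankrd1, 7 fell, 2 were not called and 0 rose at 3 weeks (median -0.72), with Fhl2, Csrp3 and Des among the 7. Without the 3 doubted FVB arrays 4 fell and 1 rose. Ldb3, a Z-disc protein, fell by 1.37 (adjusted p = 5.02e-05), Casq2, the calsequestrin that binds Ankrd1, by 0.72 (adjusted p = 0.00327), Ybx1, its nuclear partner, by 0.64 (adjusted p = 0.00368), and the titin-bound protease Capn3 by 0.79 (adjusted p = 0.0127), all by limma. Its paralogue Ankrd2 had -0.51 (adjusted p = 0.0965, limma). Of 15 tested hypertrophic ligands, receptors and kinases, 1 was higher, 4 lower and 10 not called (median -0.05), beside the 24.7% higher and 21.9% lower of all tested probe sets, and 3 were lower and 0 higher without the 3 doubted FVB arrays. The cytokine Ctf1 (-1.23), the receptor Lifr (-0.71), the growth factor Igf1 (-0.70) and the G protein subunit Gna11 (-0.61) fell, and the kinase Mapk14 rose by 0.36 (adjusted p = 0.0301, limma). The ligand endothelin, Edn1, had 0.35 (adjusted p = 0.145, limma).

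**Figure D5:**
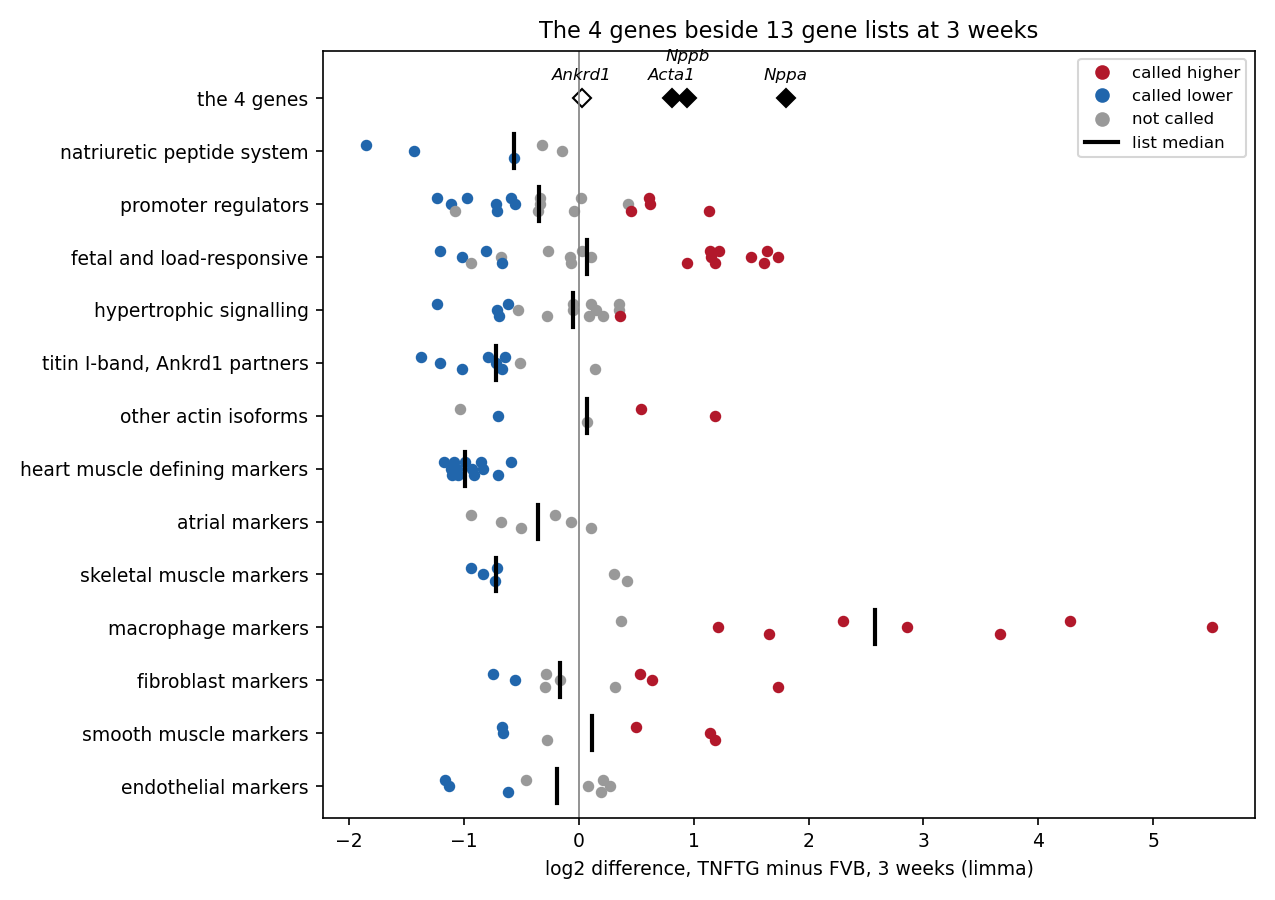
Log2 differences of transgenic minus FVB hearts at 3 weeks (x axis) for the 4 genes (diamonds, filled where called) and for the tested genes of 13 lists (rows), red where called higher, blue where called lower and grey otherwise, with a bar at each list's median. All 13 heart muscle defining markers lie on the negative side, Nppa, Nppb and Acta1 on the positive side.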

How the data were processed

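Expression was measured in mouse heart on 1-colour Affymetrix U74Av2 arrays. The deposited values are intensity (signal) per probe set, not logged, which the authors had brought to 1 level, as the array means show. What software, background method and scaling target they used was not given in the sources used here. Symbols came from the platform annotation, which can be old: of 12422 probe sets without controls, 10833 had 1 symbol, 396 several and 1193 none. Groups came from the titles.

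Signals under 44.675, the 25th percentile of pooled values, were set to that floor before log2, and the brightest 60%, 7453 probe sets, were tested. Trimmed means agreed within 1.001 times, so no scaling was added. Limma 3.58.1 (R 4.3.3) fitted 6 group means on 17 arrays, with 11 residual degrees of freedom, two-sided tests and Benjamini-Hochberg adjustment at 0.05. The fit was tested on simulated data. The number of arrays limits the precision. The alternatives were other scalings, floors, filters, variance models and array sets, and each array was left out in turn.

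The 4 genes and the 13 lists, holding 205 gene entries, were chosen with earlier results of these data known. Named were the 4 genes, up to 5 genes of a list with the smallest p, genes whose role is described, and the 3 most alike profiles; some other list genes were named after their values were seen. Same-numbered arrays correlated at -0.34 to 0.47 in their deviations (40 pairs, median 0.05), so numbers were not taken as pairs. Upstream sequences and gene coordinates came from RefSeq tables on GRCm38.p6, and no genome or protein sequence beyond them was used here. The NKX2-5 letters and the list counts without doubted arrays were chosen after values were seen.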

Additional observations from a re-analysis of the deposited data

Results flagged for a closer look

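In the group of 6 transgenic hearts of 3 weeks, Nppa on female replicate 1 (3649.3) lay far from the other 5 arrays (6458.3 to 7888.7). Its gap to the nearest array was 0.74 of the range of the group, above the critical value of 0.625 of Dixon's test for 6 samples. This was 1 of 8 groups tested, and chance marks about 1 group in 20. The same array had the lowest atrial marker sum of the series, 2067, and the lowest Tnf signal among the transgenic arrays, 5475.5. It also had the lowest Myh6 signal of the series, 16490.0, and the lowest Myh7 signal among the transgenic arrays, 10297.3. Relative to the mean log2 signal of the 13 heart muscle defining markers, its Nppa was 2.14 above the FVB mean. That was still the lowest of the 6, with 2.23 on female replicate 2. The part of these signals in the low Nppa value was not tested.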

How the results depend on the processing

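Nppa and Nppb kept direction and call at 3 weeks under all 32 alternatives, over ranges of 1.13 to 2.13 and 0.74 to 1.22 on the log2 scale, and the 128 values for the change to 13 weeks of the 4 genes kept theirs. Acta1 at 3 weeks lost its call under 12 alternatives. These were no filter on dim probe sets (0.81, adjusted p = 0.0760), array weights (0.83, adjusted p = 0.133), without the 3 doubted FVB arrays (0.56), without FVB male replicates 1 and 2 (0.57) and 8 single arrays left out (0.71 to 0.93 over all such fits). Ankrd1 at 3 weeks changed sign with both identical columns kept (-0.046) and ranged over -0.20 to 0.26 with single arrays left out. At 40 weeks, array weights turned Nppb (-0.030) and passed Acta1 (-0.99, adjusted p = 0.0434) and Ankrd1 (0.64, adjusted p = 0.0304), and leaving out single arrays gave Acta1 -0.86 to 0.27. The cause was not tested. In the comparisons by sex, Nppa in females lost its call, among other fits, with no filter (1.49, adjusted p = 0.0652) and array weights (1.57, adjusted p = 0.237), by limma. Acta1 in males gained a call, among other fits, with quantile normalization (1.23, adjusted p = 0.0251, limma). It did so too with only the groups compared (0.95, adjusted p = 0.0159, limma). Ankrd1 in females changed sign with quantile normalization (0.10) and without the 3 doubted arrays (0.25), with -0.66 to 0.25 over single arrays left out. Nppb in females ranged over -0.12 to 0.71 in those last fits. The female minus male difference changed sign for Acta1 with a common median (0.075), without the 3 doubted arrays (0.17) and without FVB male replicates 1 and 2 (0.19), and for Nppa in those last 2 fits (0.76 and 0.71). The difference between the age changes turned for Nppa under array weights (-0.35), and over single arrays left out it ranged over -0.074 to 0.52 for Nppa and -0.21 to 0.25 for Nppb. With the replicate block, whose numbers were not shown to pair arrays, Nppa, Nppb and Acta1 stood at 1.87, 0.98 and 0.86 at 3 weeks, and no call of these 4 genes changed.

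Over all tested probe sets, the alternatives moved the calls at 40 weeks (28 higher and 22 lower) to between 13 and 412 higher and between 6 and 391 lower, the highest under array weights. At 13 weeks (26 and 13) the counts ran from 10 to 59 higher and from 3 to 23 lower. At 3 weeks the lower calls (1631) fell to 1024 under array weights, in females the calls (1446 higher, 1141 lower) fell to 563 and 136 under array weights, and in males the lower calls (954) fell to 508 without FVB male replicates 1 and 2. The female minus male difference had 0 calls, and 724 higher and 768 lower without FVB female replicate 3. Between transgenic females and males of 3 weeks (3 and 3) there were 0 to 16 higher and 0 to 7 lower. With 2 to 3 arrays per group, small changes such as that of Ankrd1 at 3 weeks have wide intervals.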

Other observations

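Casq1, the skeletal muscle form of calsequestrin, was the one skeletal muscle marker called in the age changes of transgenic hearts. It read 4886.4 to 8467.1 at 3 weeks over both sexes. At 13 weeks it read 2325.6 to 3022.8 in males and at 40 weeks 1182.6 to 2155.2 in females, with no overlap. Against 3 weeks in the same sex, 8.22% of the tested probe sets separated downwards at 13 weeks and 7.55% at 40 weeks. The log2 difference of Casq1 from 3 weeks was -1.66 at 13 weeks (adjusted p = 0.00889) and -2.14 at 40 weeks (adjusted p = 5.06e-04), both by limma. In FVB hearts of 3 weeks it read 3339.9 to 7174.2.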
